A study of Rattus norvegicus with 12 samples.

Results

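Messenger RNAs of the cytosolic ribosomal proteins were described in renal cortex of diabetic and nondiabetic rats. The members were all probe sets whose array annotation named a single gene with a symbol of Rpl or Rps followed by a number, together with the acidic stalk protein Rplp0 and the small-subunit protein Rpsa. Pseudogenes, genes called like another gene, and the Rps6k kinases were left out. The rule found 43 of the 14213 genes that a probe set names alone, with 49 of the 31099 probe sets of the array. It used gene names and no measured value, but it was set with earlier results of these data known. A further 36 probe sets named several genes, among them a ribosomal protein gene or a copy or pseudogene of one. Their signal cannot be given to 1 gene, so they are described only as a set. No probe set named Rplp1 or Rplp2 alone.

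A ribosome is built from a large and a small subunit, each a core of ribosomal RNA carrying many small basic proteins that are needed in equal numbers. Their mRNAs are among the most abundant of every cell. In vertebrates most of them start with a run of pyrimidines, the terminal oligopyrimidine (TOP) motif, through which mTORC1, a kinase complex that senses insulin and amino acids, controls their translation. Growth of the kidney early in diabetes is known to go with higher protein synthesis in tubule cells.

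The 12 arrays held RNA from cortex of male littermate rats, 1 colour per array, in 4 groups of 3. Diabetic rats at 10 weeks of age had received streptozocin, which kills the insulin-making beta cells, at 65 mg/kg into a vein when 4 weeks old, and nondiabetic rats at 10 weeks had received vehicle. Diabetic rats at 20 weeks had received the same dose when 14 weeks old, and nondiabetic rats at 20 weeks vehicle. In every group a pellet followed after 3 days, with insulin palmitate in diabetic and palmitate vehicle in nondiabetic rats, and tissue was taken 6 weeks after the protocol began. The strain is not given in the sources used here. Blood glucose under diabetes was 350 to 450 mg/dl by the sample labels, and 350 mg/dl at both ends of the range by the series description. Streptozocin and insulin pellets both went with diabetes, so their effects and those of diabetes cannot be told apart. The label of 10-week diabetic replicate 1 names a vehicle pellet, and 20-week nondiabetic replicate 1 had the highest Gapdh 3'/5' ratio, a control of RNA quality, at 2.09 against 1.41 to 1.75 on the other 11 arrays. Results that rest on these 2 arrays are given without them too. The labels do not tie arrays to rats. The p-values set each difference against the spread between these arrays only, which may not be that between rats. The defining markers of proximal tubule, the main cell of the cortex, were present: their summed signal was 81630 to 95040 in 10-week diabetic and 84840 to 92070 in 10-week nondiabetic rats, and 86350 to 90210 in 20-week diabetic and 81340 to 96230 in 20-week nondiabetic rats.

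The 60 bases around the start of transcription are shown for 6 genes that differed between 20-week diabetic and nondiabetic rats in the tests below (Rpl21, Rpl13a, Rpl35a, Rplp0, Rpl4 and Rpsa), and for Rpl18 and Rpl39, which behaved differently from most members. They are RefSeq sequences of the rat assembly GRCr8, read 5′ to 3′ on the strand of the gene from 40 bases before the first listed start to 20 bases after it, and capitals mark the longest unbroken run of C and T. The windows lie at chr12:13386134-13386193 on the minus strand (Rpl21), chr1:104748894-104748953 on the minus strand (Rpl13a), chr11:81235002-81235061 on the minus strand (Rpl35a), chr12:46718371-46718430 on the minus strand (Rplp0), chr8:73566437-73566496 on the plus strand (Rpl4), chr8:128728839-128728898 on the plus strand (Rpsa), chr1:105325230-105325289 on the plus strand (Rpl18) and chrX:121195877-121195936 on the minus strand (Rpl39).
Rpl21: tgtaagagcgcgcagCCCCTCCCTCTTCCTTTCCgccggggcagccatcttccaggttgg
Rpl13a: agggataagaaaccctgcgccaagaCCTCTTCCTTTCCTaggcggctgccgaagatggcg
Rpl35a: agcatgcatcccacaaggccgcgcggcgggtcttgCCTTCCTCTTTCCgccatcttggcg
Rplp0: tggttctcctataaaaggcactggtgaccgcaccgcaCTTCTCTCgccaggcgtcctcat
Rpl4: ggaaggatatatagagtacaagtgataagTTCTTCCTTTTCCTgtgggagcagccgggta
Rpsa: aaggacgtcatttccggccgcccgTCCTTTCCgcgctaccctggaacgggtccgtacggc
Rpl18: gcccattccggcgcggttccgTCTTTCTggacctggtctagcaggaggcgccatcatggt
Rpl39: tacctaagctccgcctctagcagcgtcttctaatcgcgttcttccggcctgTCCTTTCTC

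The longest run was 19 bases in Rpl21, 14 in Rpl13a and Rpl4, 13 in Rpl35a, 8 in Rplp0 and Rpsa, 7 in Rpl18 and 9 in Rpl39, where it ends with the window. Counted from the listed start, it began at base −25 in Rpl21, −15 in Rpl13a, −16 in Rpsa and −19 in Rpl18. In these genes it ended before the start. It crossed the start in Rpl35a (from −5), Rplp0 (from −3) and Rpl4 (from −11), and in Rpl39 it began at base 12 after it. Of the 43 member genes, 38 had a promoter sequence in the RefSeq table. A run of at least 8 bases that are C or T lay in this window in 29 of the 38 (76.3%), against 24.0% of all 27457 promoters. The same run on the other strand, at least 8 bases that are A or G, was held by 3 member genes (7.89%) and by 24.0% of all promoters. The letters CTTTCC were found on the gene's strand in 28.9% of member genes and 2.75% of all promoters, and on the other strand in 0 member genes and 2.55% of all promoters. The letters TTCCTTT were found in 21.1% of member genes and 1.09% of all promoters, and on the other strand in 0 member genes and 0.983% of all promoters. Both motifs consist of C and T, so they can overlap each other and the runs. No source for the choice of these letters is given here, so their shares describe the windows and test nothing. Among the 9 genes with a promoter that were called in a test below, 6 had a run of at least 8 (66.7%), and among the 29 that were not, 23 had one (79.3%). These matches describe letters anywhere in a window and not binding sites. A run counted here need not be a TOP motif, which lies at the start of the mRNA.

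Signals were compared after log2, with limma on all 12 arrays, and a call needed an adjusted p (Benjamini-Hochberg, over the 18625 probe sets tested) under 0.05. Of the 49 member probe sets 46 were bright enough to be tested, covering 41 genes. The 3 left out were dim probe sets for Rpl14 (1375375_at, mean signal 20.1 over the 12 arrays), Rpl28 (1397237_at, 57.5) and Rpl30 (1386517_at, 36.9), and Rpl14 had another that was tested. Mean signals of the 46 lay between 103.8 and 28614, with a median of 12125, against a median of 389.9 over all probe sets tested. The brightest probe sets were those of Rps29, Rpl26, Rpl7a, Rpl37a and Rps3a, and the dimmest were those of Rps13, Rpl7 (1375788_at), Rps4y2, Rps24 (1390494_at) and Rpl3 (1396049_x_at). A probe set's signal also depends on its probes, so levels are compared only within a probe set. Probe sets with _s_at or _x_at in their name may share probes with other transcripts. In cortex as a whole, fewer cells of a type and less RNA per cell cannot be told apart.

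At 20 weeks the ribosomal protein mRNAs were a little more abundant in diabetic than in nondiabetic cortex, and nearly all of them leaned the same way. Of the 46 probe sets 43 had a positive difference, and the median was 0.25 on the log2 scale (1.19-fold), against −0.0043 over all probe sets tested, of which 49.3% were positive. The 29 probe sets of the large subunit had a median difference of 0.26 and the 17 of the small subunit one of 0.25. Singly, 7 were called higher (15.2%) and 0 lower, where 2.84% of all probe sets were called, 1.22% higher and 1.62% lower. At an unadjusted p under 0.05 the count was 30, in each case higher (background 8.48% higher). The 3 diabetic arrays lay above the 3 nondiabetic arrays without overlap for 29 probe sets (63.0%) and below them for 0, against 10.1% and 10.9% of all probe sets. The called count rested on few arrays. It was 3 without 20-week diabetic replicate 1, 1 without replicate 2 and 2 without replicate 3, and it was 4 without 20-week nondiabetic replicate 1 and 1 without replicate 2. Without both doubted arrays it was 2, while the median difference was 0.28.

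**Figure D1:**
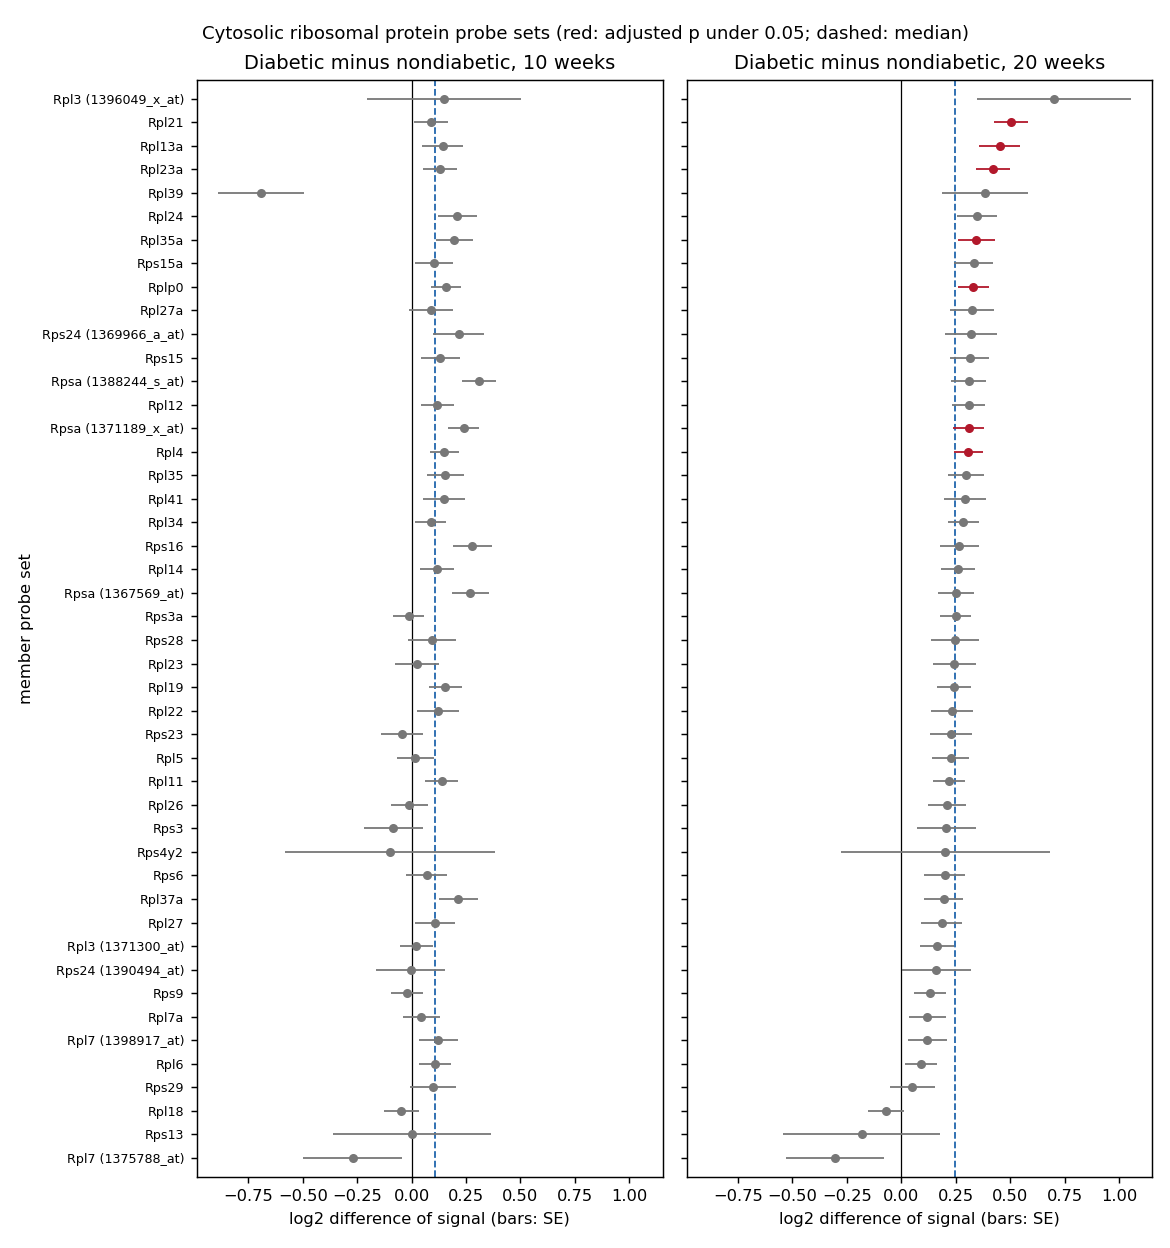
Log2 difference of signal, diabetic minus nondiabetic, of the 46 member probe sets tested at 10 weeks (left) and 20 weeks (right), ordered by the difference at 20 weeks; points are estimates, bars their standard error, the dashed lines the medians (0.11 and 0.25), and red points have an adjusted p under 0.05. At 20 weeks 43 of the 46 points lie right of 0 and 7 are red, and at 10 weeks 36 lie right of 0 and 0 are red.

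The probe set of Rpl21, a protein of the large subunit, had the smallest p of the members. Its signal was 9665, 10560 and 9374 in 20-week diabetic rats, against 6673, 7102 and 7061 in 20-week nondiabetic rats. Each diabetic array stood well above each nondiabetic one. The log2 difference was 0.51 ± 0.08 (SE; 1.42-fold, adjusted p 0.00568), and it was called under each of 22 alternative settings. Rpl13a, a large-subunit protein known from human cells also as a regulator of inflammatory mRNAs after its release from the ribosome, had signals of 13170, 12920 and 13290 in diabetic and 9589, 8656 and 10640 in nondiabetic rats. The 3 diabetic arrays were nearly equal and the nondiabetic ones spread more, with no overlap. The difference was 0.45 ± 0.09 (1.37-fold, adjusted p 0.0239). Rpl23a, which sits at the exit of the tunnel through which the new peptide leaves, gave 11620, 13450 and 11630 in diabetic and 9346, 8879 and 9118 in nondiabetic rats. Diabetic replicate 2 was the highest array and every nondiabetic array was lower than every diabetic one. The difference was 0.42 ± 0.08 (1.34-fold, adjusted p 0.0154).

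The other called probe sets at 20 weeks differed by less. Rpl35a, a large-subunit protein mutated in some patients with Diamond-Blackfan anaemia, had signals of 17760, 17650 and 17270 in diabetic and 14490, 12610 and 14450 in nondiabetic rats, a difference of 0.35 ± 0.08 (adjusted p 0.0483). The groups did not overlap, and the nondiabetic spread came from the low replicate 2. Rplp0, the base of the stalk that recruits elongation factors and a common reference gene in quantitative PCR, gave 14470, 15380 and 14150 in diabetic and 12040, 11050 and 11880 in nondiabetic rats. The difference was 0.33 ± 0.07 (1.26-fold, adjusted p 0.0262), again with no overlap. Rpl4, whose long loop lines the peptide tunnel, gave 9700, 9443 and 10610 in diabetic and 7763, 8140 and 8100 in nondiabetic rats. Here too the groups were apart, by 0.31 ± 0.07 (1.24-fold, adjusted p 0.0322). One of the 3 probe sets of Rpsa, a small-subunit protein also called the laminin receptor, had 3427, 3463 and 3381 in diabetic and 2894, 2721 and 2680 in nondiabetic rats. The replicates were tight in both groups, and the difference was 0.31 ± 0.07 (1.24-fold, adjusted p 0.0402). Of 22 alternative settings, the call was lost in 3 for Rpl23a, 7 for Rpl13a, 10 for Rplp0, 11 for Rpl4, 15 for Rpsa and 17 for Rpl35a, with the direction kept in each.

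**Figure D2:**
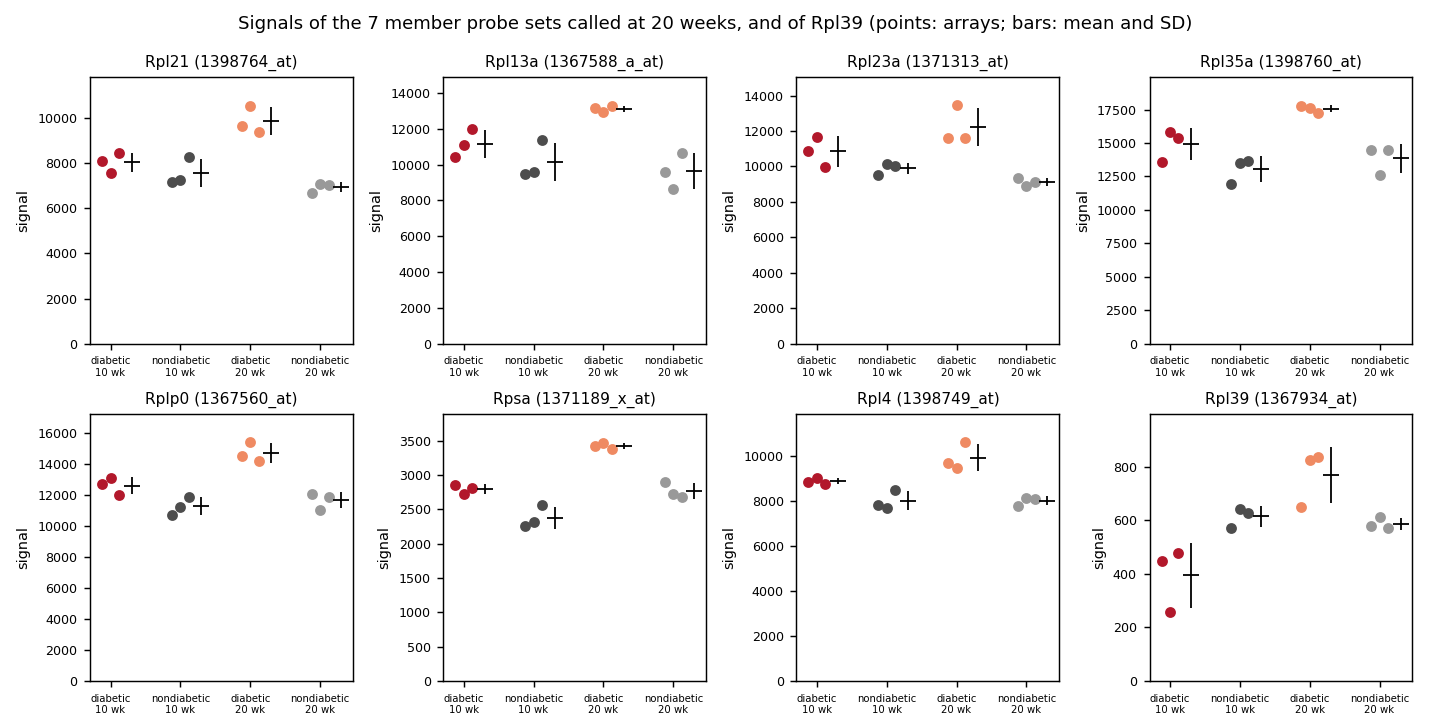
Deposited signal (linear scale from 0) of the 7 member probe sets called at 20 weeks and of Rpl39 on each array; points are arrays, horizontal bars group means and vertical bars SD (n = 3). In the 7 called probe sets the 3 diabetic arrays at 20 weeks lie above the 3 nondiabetic ones, and for Rpl39 the diabetic arrays lie below the nondiabetic ones at 10 weeks and above them at 20 weeks.

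Some of the remaining members had differences as large as called ones. Rpl24, Rps15a, Rpl12, Rps15 and a second probe set of Rpsa (1388244_s_at) lay between 0.31 and 0.35 without overlap, and their adjusted p were 0.0645, 0.0679, 0.0503, 0.0873 and 0.0624. Rps6, the small-subunit protein phosphorylated by the S6 kinases downstream of mTORC1, had 17210, 17610 and 19020 in diabetic and 16140, 13800 and 17060 in nondiabetic rats. Its arrays did not overlap, but the nearest values almost touched, and the difference of 0.20 ± 0.09 had an adjusted p of 0.308. Rpl5 and Rpl11, which join 5S ribosomal RNA before it enters the large subunit, had differences of 0.23 ± 0.08 and 0.22 ± 0.08 (adjusted p 0.193 and 0.157). Between 0.1 and 0.55 lay 40 of the 46 differences. The median standard error of the members was 0.09, against 0.18 over all probe sets tested, so small differences could be called more readily for them than for a typical probe set.

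A few members did not follow. Rpl18, a large-subunit protein, had 15180, 16370 and 15700 in diabetic and 16740, 15740 and 17140 in nondiabetic rats at 20 weeks, overlapping groups with a difference of −0.07 ± 0.08 (adjusted p 0.719). Rps29, the brightest member, had 29390, 30800 and 29890 in diabetic and 29690, 24800 and 33040 in nondiabetic rats, where the nondiabetic arrays spanned the diabetic ones (0.05 ± 0.10, adjusted p 0.854). Rps13, at a mean signal of 103.8 the dimmest member tested, differed by −0.18 ± 0.36, and by 0.10 without 20-week nondiabetic replicate 3. For 4 genes several probe sets were tested. Those of Rpl7 disagreed in sign, at 0.12 ± 0.09 for the bright probe set (1398917_at) and −0.31 ± 0.23 for the dim one (1375788_at). Those of Rpl3, the protein nearest the catalytic centre, gave 0.16 ± 0.08 (1371300_at, mean signal 14360) and 0.70 ± 0.35 (1396049_x_at, mean signal 430.2), the largest member difference and one with overlapping arrays and an adjusted p of 0.342. The probe sets of Rps24 gave 0.32 ± 0.12 and 0.16 ± 0.16, and the 3 of Rpsa gave 0.31, 0.31 and 0.25.

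At 10 weeks the median difference was smaller and no member was called. Diabetic minus nondiabetic, it was 0.11 (1.08-fold) over the 46 probe sets, against −0.02 over all probe sets tested, and 36 were positive (background 46.3%). With limma 0 members were called, where 0.306% of all probe sets were. At an unadjusted p under 0.05 there were 9 higher and 1 lower (background 5.18% and 5.67%), and without overlap 7 were higher and 1 lower (background 7.47% and 9.52%). Without 10-week diabetic replicate 1, whose label names a vehicle pellet, 0 were called and the median was 0.15. Among other single arrays left out, it came to 0.05 when nondiabetic replicate 1 was dropped and 0.06 when diabetic replicate 2 was, and quantile normalization gave 0.05.

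The largest positive difference at 10 weeks was that of a probe set of Rpsa (1388244_s_at). It had 10900, 11490 and 11100 in diabetic and 8505, 8938 and 9605 in nondiabetic rats at 10 weeks. The groups were well apart, with a difference of 0.31 ± 0.08 and an adjusted p of 0.162. The other 2 probe sets of Rpsa differed by 0.27 ± 0.08 and 0.24 ± 0.07 (adjusted p 0.238 and 0.229), also without overlap. Rps16, a small-subunit protein near the decoding site, had the second largest difference, with 10350, 12210 and 11330 in diabetic and 8710, 8983 and 10240 in nondiabetic rats. Its highest nondiabetic array came close to its lowest diabetic one, and it differed by 0.28 ± 0.09 (adjusted p 0.268). Rps24 (1369966_a_at) followed with 0.22 ± 0.12. The lowest values were those of Rpl39, Rpl7 (1375788_at, −0.27 ± 0.23), Rps4y2 (−0.10 ± 0.48), Rps3 (−0.08 ± 0.14) and Rpl18 (−0.05 ± 0.08). The last 3 changed sign under another scaling, at 0.01 for Rps4y2, 0.03 for Rps3 and 0.06 for Rpl18 with median centring. They also did so without 1 array, at 0.26 for Rps4y2 without 10-week nondiabetic replicate 1, 0.07 for Rps3 without 10-week diabetic replicate 1, and for Rpl18 at 0.0021 without 10-week diabetic replicate 3 and 0.02 without 10-week nondiabetic replicate 2.

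Over both ages together 12 member probe sets of 10 genes were called, all of them higher in diabetic rats, 26.1% of the members where 4.47% of all probe sets were called (2.14% higher and 2.34% lower). The mean of the differences at 10 and 20 weeks had a median of 0.18 over the members, against −0.01 over all probe sets, and 42 of the 46 were positive (background 47.6%). Quantile normalization gave a median of 0.11. At an unadjusted p under 0.05 there were 27, each higher (background 8.57% higher). The 7 probe sets called at 20 weeks were among them, with mean differences from 0.23 for Rpl4 (adjusted p 0.0177) to 0.30 for Rpl21 (adjusted p 0.00924). The 5 others were Rpsa 1388244_s_at (0.31 ± 0.06, adjusted p 0.00815), Rpsa 1367569_at (0.26 ± 0.06, 0.0256), Rpl24 (0.28 ± 0.06, 0.0292), Rps16 (0.27 ± 0.06, 0.0307) and Rpl12 (0.21 ± 0.05, 0.0422). Rpl24 joins the large subunit late in its assembly, as known from yeast, and Rpl12 lies beside the stalk. All 3 probe sets of Rpsa were thus called, and Rpsa 1388244_s_at and Rpsa 1371189_x_at were called in each of 21 alternative settings. Both have names that mark probes other transcripts may share, unlike Rpsa 1367569_at. Of the same 21, the call was lost in 9 for Rpsa 1367569_at, 10 for Rpl24, 10 for Rps16 and 13 for Rpl12. It was also lost in 9 for Rpl13a, 8 for Rpl35a, 2 for Rpl23a, 2 for Rpl4, 2 for Rplp0 and 1 for Rpl21. Without both doubted arrays Rpl21, Rpl13a, Rpl23a, Rpl4, Rplp0, Rpl12, Rpl24 and Rpsa 1367569_at were not called. The count of 12 was 4 without both doubted arrays. With 1 array left out it was 6 without 10-week diabetic replicate 3. It was 7 when the array left out was 10-week diabetic replicate 2, 10-week nondiabetic replicate 1, 20-week diabetic replicate 2 or 3, or 20-week nondiabetic replicate 2.

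Whether the diabetes difference itself changed with age was tested as the difference at 10 weeks minus that at 20 weeks. With limma 0 members were called, as were 0 of all probe sets (0.0%). At an unadjusted p under 0.05 there were 5 members, each with the larger difference at 20 weeks, and 1480 of all probe sets (7.95%). Of all probe sets 4.63% were at this p with a negative value like these members. They were Rpl39, Rpl21 (−0.42 ± 0.11, adjusted p 0.439), Rpl13a (−0.31 ± 0.13, 0.599), Rpl23a (−0.29 ± 0.11, 0.554) and Rps3a (−0.26 ± 0.10, 0.554). The difference was larger at 20 weeks for 36 of 46 members and for 50.5% of all probe sets, and 35 members were positive at both ages. The median of the members was −0.15, against −0.0041 over all probe sets. It was −0.0033 with median centring, a scaling under which the median of all probe sets was 0.14, so relative to all probe sets it was −0.14 both ways.

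Rpl39, a very small protein of the peptide tunnel encoded on the X chromosome, had the lowest difference of the members at 10 weeks. Its signal was 447.3, 256.1 and 479.5 in 10-week diabetic rats, against 571.7, 643.1 and 629.1 in 10-week nondiabetic rats. Every diabetic array was below every nondiabetic one, and replicate 2 was far below the other diabetic ones. At 20 weeks it was 649.9, 825.4 and 835.2 in diabetic, against 577.8, 610.8 and 570.0 in nondiabetic rats, with each diabetic array the higher. The differences were −0.69 ± 0.20 (adjusted p 0.215) and 0.39 ± 0.20 (adjusted p 0.355). The difference at 10 weeks minus that at 20 weeks was −1.08 ± 0.28, with an unadjusted p of 0.00213 and an adjusted p of 0.422. Without 10-week diabetic replicate 2 the difference at 10 weeks was −0.41. Of all probe sets 9.52% were lower without overlap at 10 weeks and 10.1% higher at 20 weeks. The share with both was not counted.

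Between the ages the members differed little in nondiabetic rats. Taken as 20 minus 10 weeks, the median member difference was 0.02, against 0.01 over all probe sets, and 27 of 46 were positive (background 51.0%). With limma 0 members and 0.0% of all probe sets were called, and 1 member had an unadjusted p under 0.05, where 8.61% of all probe sets did (4.38% higher). That member was Rpsa 1371189_x_at, with 2894, 2721 and 2680 in 20-week and 2249, 2308 and 2560 in 10-week nondiabetic rats (0.22 ± 0.07, adjusted p 0.49). Rpl21 and Rpl23a, called for diabetes at 20 weeks, were without overlap lower in 20-week than in 10-week nondiabetic rats, with differences of −0.12 ± 0.08 each (adjusted p 0.672 and 0.68). Without overlap 1 member was higher and 2 were lower (background 6.36% and 5.7%). Rps4y2 (−0.30 ± 0.48) and the dim probe sets of Rpl7 (0.38 ± 0.23) and Rpl3 (−0.24 ± 0.35) had the widest age differences, with overlapping arrays.

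The ribosomal protein probe sets that name several genes gave similar values. All 36 were tested, and their median difference was 0.24 at 20 weeks and 0.12 at 10 weeks. At 20 weeks 33 were positive, 27 were higher without overlap and 5 were called, each higher, where 49.3%, 10.1% and 1.22% of all probe sets were. They were measured on the same arrays as the members and can share probes with close copies, so they are not independent of them.

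The members tended to vary together over the 12 arrays. The median correlation between 2 member probe sets over the 12 arrays was 0.67, and 933 of 1035 pairs had a correlation above 0. Differences between the 4 groups enter these correlations, and the same values were not taken for other probe sets. After each probe set was centred on its own mean, the median over members was 0.11, 0.21 and 0.21 on the 20-week diabetic arrays, against −0.03, −0.17 and −0.02 on the 20-week nondiabetic arrays. Each diabetic array at 20 weeks was thus above each nondiabetic one. It was −0.07, 0.10 and −0.01 on the 10-week diabetic arrays, against −0.17, −0.03 and −0.04 on the 10-week nondiabetic arrays, and these overlapped. The SD between replicates of this median was 0.08. The profiles of Rpl27a, Rpl34, Rpl12 and Rpl35a followed the member median most closely (r 0.96 to 0.95), and those of Rps4y2 (−0.22), Rpl7 1375788_at (−0.03), Rps13 (0.12), Rpl18 (0.20) and Rpl39 (0.21) least. Of these, Rps4y2, Rpl7, Rps13 and Rpl39 were dim. Together with Rpl3 1396049_x_at, these 4 dim probe sets had the largest SD over the arrays, from 0.34 for Rpl7 1375788_at to 0.62 for Rps4y2 on the log2 scale.

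**Figure D3:**
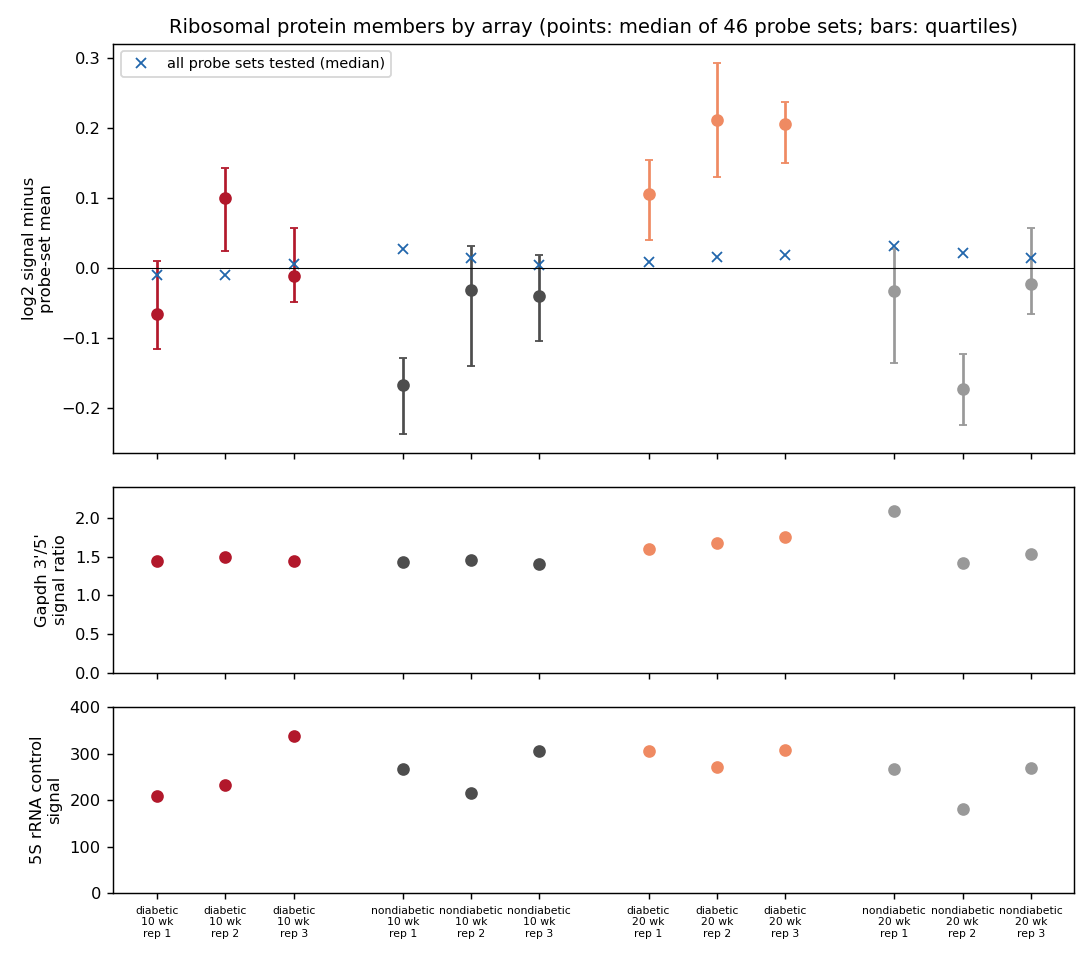
Top, median (point) and quartiles (bar) over the 46 member probe sets of the log2 signal minus each probe set's mean over the 12 arrays, with the median of all probe sets tested as crosses; middle, 3'/5' ratio of Gapdh signals; bottom, signal of the 5S rRNA control, each by array. The 20-week diabetic arrays have the highest member medians (0.11 to 0.21), and the Gapdh ratio is highest, at 2.09, on 20-week nondiabetic replicate 1.

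Members are bright, and very bright probe sets as a class were also somewhat higher in diabetic rats. Among the 309 other probe sets with a mean signal of at least 10000, the median difference at 20 weeks was 0.06, 3.56% were called higher and 21.4% were higher without overlap. These others can include ribosomal protein probe sets that name several genes, many of which are as bright. The 33 members at that brightness had a median of 0.25, with 4 called and 21 higher without overlap. At 10 weeks the medians were 0.11 for these members and 0.05 for the other probe sets, and 5 of the 33 members were higher without overlap, where 19.7% of the other probe sets were. The part of brightness in the difference was not tested further. RNA quality also varied. The Gapdh 3'/5' ratio, which rises as RNA degrades, was 1.60 to 1.75 in 20-week diabetic and 1.42 to 2.09 in 20-week nondiabetic rats, and 1.44 to 1.5 in 10-week diabetic and 1.41 to 1.46 in 10-week nondiabetic rats. The actin 3'/5' ratio was 7.46 to 11.4 in 20-week diabetic and 6.87 to 11.2 in 20-week nondiabetic rats, and 6.3 to 8.57 in 10-week diabetic and 6.75 to 7.47 in 10-week nondiabetic rats. It was highest on 20-week diabetic replicate 2, the array with the highest member median, and without that array 1 member was called at 20 weeks. The 5S rRNA control gave 271.6 to 308.9 in 20-week diabetic and 181.7 to 269.0 in 20-week nondiabetic rats, which did not overlap. It gave 208.4 to 337.7 in 10-week diabetic and 216.1 to 305.6 in 10-week nondiabetic rats. The part of RNA quality and of these controls in the result was not tested.

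Marker genes of other cell types were summed on the same arrays, and at 20 weeks 0 of the markers tested in these lists were called. The summed signal of 7 leukocyte markers was 16550 to 23630 in diabetic and 11710 to 21150 in nondiabetic rats, and the B and T cell markers Cd79b and Cd3e were too dim to be tested. The 5 leukocyte markers tested had a median difference of 0.39, and 5 of 5 were positive. The summed signal of 3 fat markers was 487.5 to 770.5 in diabetic and 267.5 to 314.1 in nondiabetic rats. That of 4 podocyte markers was 4038 to 4487 in diabetic and 4945 to 5427 in nondiabetic rats, and that of 3 endothelial markers 5107 to 5876 in diabetic and 6123 to 6960 in nondiabetic rats. The fat sums were thus higher, and the podocyte and endothelial sums lower, in diabetic rats without overlap. Mean signals of the fat markers in diabetic against nondiabetic rats were 415.2 against 88.4 (Fabp4), 201.7 against 150.7 (Adipoq) and 31.8 against 44.7 (Plin1). Markers of thick limb and distal tubule summed to 18480 to 30000 in diabetic and 27690 to 30360 in nondiabetic rats, and those of collecting duct to 13840 to 15560 in diabetic and 12310 to 12790 in nondiabetic rats, which did not overlap. Among the collecting duct markers, Aqp2 was higher without overlap (0.41 ± 0.12). The others overlapped, with Atp6v1g3 higher (0.19 ± 0.13), and Aqp3 (−0.10 ± 0.16) and Scnn1b (−0.11 ± 0.15) lower. Fibroblast and smooth muscle markers summed to 3219 to 4892 in diabetic and 2603 to 3860 in nondiabetic rats, erythroid markers to 10520 to 18670 in diabetic and 15100 to 19480 in nondiabetic rats, and markers of proliferating cells to 3042 to 3533 in diabetic and 2795 to 3493 in nondiabetic rats. These 3 overlapped. At 10 weeks the fat sums (424.5 to 587.7 in diabetic and 226.5 to 337.1 in nondiabetic rats) and the fibroblast and smooth muscle sums (4182 to 5174 in diabetic and 3931 to 4134 in nondiabetic rats) were higher in diabetic rats without overlap, and the other sums overlapped. Among the fat markers at 10 weeks only Fabp4 was higher without overlap (mean 257.3 against 56.0, with 1 nondiabetic array at 1.749). Adipoq (184.9 against 174.5) and Plin1 (74.3 against 60.7) overlapped. Within the fibroblast and smooth muscle list at 10 weeks, Col1a1, Col3a1 and Tagln were higher, and Acta2 (−0.24 ± 0.17) and Pdgfrb (−0.04 ± 0.16) lower. Over both ages 3 markers were called. They were Aqp2, the water channel of the collecting duct (0.55 ± 0.09, adjusted p 0.00391, also called at 10 weeks at 0.68 ± 0.12, adjusted p 0.0433), Csf1r of macrophages (0.36 ± 0.09, adjusted p 0.0453) and nephrin, Nphs1, of podocytes, which was lower (−0.48 ± 0.10, adjusted p 0.0157). The part of cell makeup in the ribosomal protein signals was not tested.

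Other groups of translation genes stand side by side here without a test between lists. Over all probe sets tested, 1.22% were called higher and 1.62% lower at 20 weeks, and 2.14% and 2.34% over both ages. Among 15 genes of elongation and other TOP mRNAs the median difference at 20 weeks was 0.09, with 1 called higher and 0 lower. That gene was Eef1g, a subunit of the exchange factor that recharges elongation factor 1A, with a difference of 0.44 ± 0.11 (adjusted p 0.0446). Over both ages 2 of the 15 were called higher, Eef1g (0.31 ± 0.07, adjusted p 0.0376) and Eef1b2 of the same factor (0.26 ± 0.05, adjusted p 0.0058). A second probe set of Hnrnpa1, an RNA-binding protein, was called at 20 weeks (0.90 ± 0.22, adjusted p 0.046), while the brighter one differed by 0.09. Among 26 genes of translation initiation, which include Eif4ebp1 and Eif4ebp2 beside the factors, the median at 20 weeks was 0.0005. Of these genes 0 were called at either age or over both, with 0 at an unadjusted p under 0.05 at 20 weeks.

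Of 55 ribosome biogenesis genes 3 were called higher and 0 lower at 20 weeks, with a median of 0.08. They were Polr1d, a subunit shared by RNA polymerases I and III (0.35 ± 0.08, adjusted p 0.0371), Ebna1bp2, a nucleolar assembly factor (0.36 ± 0.08, 0.0387), and nucleolin, Ncl (0.34 ± 0.08, 0.0341). Of 73 mitochondrial ribosomal protein genes, which serve the separate ribosome of mitochondria, 0 were called at 20 weeks and the median was 0.0024, with 37 positive. At 10 weeks their median was 0.09, with 53 of 73 positive, beside 0.11 and 36 of 46 for the cytosolic members. Among 19 genes of the mTORC1 pathway and Myc the median was −0.05. The transcription factor Myc, which drives ribosome synthesis in growing cells, was higher by 1.42 ± 0.24 (2.67-fold, adjusted p 0.00945), and Rragc, a GTPase that brings mTORC1 to the lysosome, was lower, with a difference of −0.36 ± 0.08 (adjusted p 0.0389). Among 4 ribosomal proteins under other symbols and like genes the median was 0.42, with 4 of 4 positive, and 0 were called. They included Rack1, a small-subunit scaffold (0.13 ± 0.09), and Rps27l, a relative of Rps27 (0.87 ± 0.25, adjusted p 0.084). At 10 weeks, and for the change of the difference with age, 0 genes of these 6 lists were called.

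**Figure D4:**
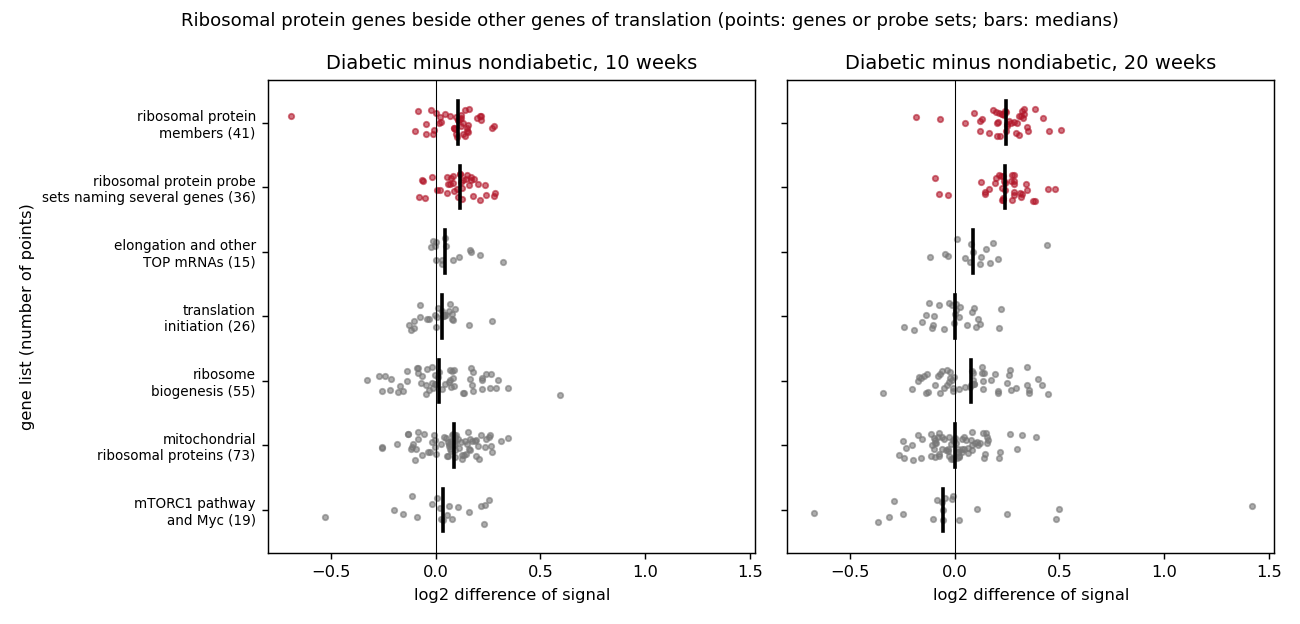
Log2 difference of signal, diabetic minus nondiabetic, at 10 weeks (left) and 20 weeks (right) for the ribosomal protein members, the ribosomal protein probe sets that name several genes, and 5 lists of other translation genes; points are genes (1 probe set each, the brightest) or probe sets, bars medians. At 20 weeks both ribosomal protein medians lie near 0.24 and those of the other lists between −0.05 and 0.09.

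The genes outside the set whose profile over the 12 arrays was most like the member median were Pigr, the receptor that carries IgA across epithelia (r 0.952), Aass of lysine breakdown (0.946), Cenpv, Dhtkd1, Spink1, Tlk2, Fgb, Acsl1, S100a10 and Ehhadh (0.915). These correlations describe 4 groups of 3 arrays and carry no test. At 20 weeks Pigr differed by 1.47 ± 0.25 (adjusted p 0.00945) and Aass by 0.58 ± 0.09 (adjusted p 0.00718), both higher in diabetic rats.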

How the data were processed

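Renal cortex RNA of 12 samples was measured on arrays of 1 type. The authors deposited linear intensity values, 1 signal per probe set, made with GCOS per the submitters' processing notes (version and summary method: not given in the sources used here). The mean signal after trimming 2% at each end was 500.2 on each array, so each value is relative to the rest of its array. The 57 control probe sets were dropped, the 424 signals under 1 were raised to 1, and log2 was taken. The dimmest 40% of the remaining 31042 probe sets by mean log2 were left out (limit, geometric mean signal 70.9), which left 18625.

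A model of 4 group means was fitted with limma 3.58.1 in R 4.3.3 (8 residual degrees of freedom, eBayes with an intensity trend), for 5 comparisons, two-sided, with Benjamini-Hochberg adjustment over the probe sets tested. The test was checked on simulated data, where it called 57% of changes of 1.0 and 77% of changes of 1.5 on the log2 scale. Changes as small as most member differences were not simulated. Values are log2 differences ± SE of this fit. The number of arrays limits the precision. Gene names came from the array annotation, updated through RefSeq: 20826 probe sets named 1 gene, 436 several and 9780 none here. Columns not used: 0.

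The members and lists were chosen with earlier results of these data known, so no test is made over a list, and shares over all probe sets are given beside the first counts of each comparison. Lists use the brightest probe set of a gene. Named were, per comparison, the called members and the 5 largest differences each way, the 5 brightest, the 5 dimmest and the 5 of largest SD, Rplp0 and Rpsa, of the lists the called genes and those of the 4 smallest p (not all printed), and the 10 genes most alike by Pearson correlation. Rps6, Rpl5, Rpl11, Rps15a, Rps15, Rpl34 and Rpl27a were added after their values were seen. Alternatives were quantile and median scaling, other filters, an offset of 16, no intensity trend, array weights, 2-group fits, the replicate number as a block, unique probe sets, 1 probe set per gene, each array left out and, chosen after seeing the data, both doubted arrays left out and probe sets naming several genes included.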

Additional observations from a re-analysis of the deposited data

Results flagged for a closer look

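Rpl39 (1367934_at) had a diabetes difference of opposite direction at the 2 ages: each diabetic array was below each nondiabetic array at 10 weeks and above each at 20 weeks. The difference at 10 weeks minus that at 20 weeks was −1.08 ± 0.28 on the log2 scale (SE; limma unadjusted p 0.00213, adjusted p 0.422), so the test of the change itself did not pass the threshold. With 1 array left out in turn it stayed between −1.24 and −0.79, and without both doubted arrays it was −1.18. Rpl39 was picked out by this pattern, and the share of all probe sets with such a reversal was not counted. Taken singly, 9.52% of all probe sets were lower without overlap at 10 weeks and 10.1% higher at 20 weeks.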

How the results depend on the processing

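The counts of members called at 10 weeks, for the change of the difference with age and for age were 0 under each alternative run. The count of 7 at 20 weeks was 3 with median centring, 3 with no filter on dim probe sets, 1 with no intensity trend, 3 in the fit of the 2 groups alone, 2 without both doubted arrays and 12 with probe sets naming several genes included. With 1 array left out it ranged from 1 to 8. The count of 12 over both ages was 20 with median centring, 3 with no intensity trend, 4 without both doubted arrays and 21 with probe sets naming several genes included, and it ranged from 6 to 15 with 1 array left out. The cause was not tested. With the replicate number as a block 4 were called at 20 weeks. Same-numbered arrays did not deviate together (r −0.15 to 0.15), so the numbers were not taken as pairs, and 7 of 12 arrays correlated best with their own number. The median difference kept its sign at 20 weeks (0.18 to 0.29) and 10 weeks (0.05 to 0.22). Median centring moved the median of all probe sets at 10 weeks to 0.09 and that of the members to 0.22, so relative to all probe sets the members stayed at 0.13. That relative value was 0.04 with quantile normalization, 0.06 without 10-week nondiabetic replicate 1 and 0.08 without 10-week diabetic replicate 2. For the change with age it gave −0.0033, with all probe sets at 0.14. At 10 weeks 44 members were positive with median centring, against 36. Among the probe sets followed singly, those that changed sign at 10 weeks were Rpl18 (0.0629 with median centring, −0.110 to 0.0193 with 1 array left out), Rps3 (0.0263 with median centring, 0.0726 without both doubted arrays, −0.203 to 0.0726 with 1 array left out) and Rps4y2 (0.0105 with median centring, −0.466 to 0.262 with 1 array left out). At 20 weeks Rps13 did, with −0.410 to 0.10 when 1 array was left out. None of these was called. Signals of the 6 members below 1000 carry the largest errors.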
